A study of Homo sapiens with 6 samples.

Results

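The genes described here are 40 genes of DNA repair and of the DNA damage checkpoint, measured in A549 cells, a human lung adenocarcinoma line, after transfection with siRNAs against TIMM13. They are the rows of a table of 19990 gene symbols whose symbol is on a list of 40, and all 40 were found. By role, 9 belong to base excision repair, 2 to mismatch repair, 20 to homologous recombination with the Fanconi pathway, 5 to end joining, and 4 are checkpoint kinases. Of the 40, 39 reached a deposited value of at least 1 in at least 2 of the 6 libraries and were tested. The exception was RAD54L, which encodes a motor protein of homologous recombination and stood between 0.428 and 0.974 in the 6 libraries.

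Cells keep separate systems for separate kinds of DNA damage. Base excision repair removes damaged bases with glycosylases, cuts the strand with the endonuclease APEX1 and closes it with XRCC1 and a ligase, and mismatch repair corrects errors left by the replication fork. Breaks through both strands are either copied from the sister chromatid by homologous recombination, which works in S and G2 phase, or joined directly by end joining, while the Fanconi proteins unhook crosslinks between strands and the kinases ATM, ATR, CHEK1 and CHEK2 pass the damage signal to the cell cycle. Many genes of homologous recombination are transcribed mainly in cycling cells, so their mRNA tends to be higher where more cells are in S and G2 phase.

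RNA was sequenced from 6 libraries of poly(A)-selected, strand-specific RNA, and the design text asks how TIMM13, a chaperone of mitochondrial protein import, acts on the growth of these cells. All were A549 cells, labelled wild type in the control group and TIMM13 knockdown in the others: 2 libraries were transfected with a control siRNA that targets no gene, and 2 each with the TIMM13 siRNAs 1 and 2. The labels give no time after transfection, cell differentiation is given as the treatment of every sample, and the groups were taken from the titles. The labels do not say whether the replicates of a group were separate cultures, so the p-values measure only the spread between these samples, which may be technical.

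The knockdown was not visible in the table. The 2 control values of TIMM13 were 2.09 and 2.56, those labelled siRNA 1 were 2.09 and 1.83, and those labelled siRNA 2 were 1.82 and 2.31. The annotated exons of TIMM13 share 13.0% of their length with LMNB2 on the same strand and 15.9% with TMPRSS9 on the opposite strand. The log2 fold changes of TIMM13 against control were −0.16 (SE 0.167, limma adjusted p = 0.653) and −0.12 (SE 0.167, adjusted p = 0.666). Every direction below is therefore that of libraries labelled with an siRNA. Values are the authors' depth-scaled signal per gene, and fold changes are differences of log2(value + 1). The library labelled siRNA 2 replicate 2 stood apart from the rest, with a column total of 299936 against 205986 to 219820 in the other 5. Over all tested genes its log2 values had a correlation of 0.805 with its own replicate and of 0.745 to 0.772 with each control or siRNA 1 library. All 14 epithelial and A549 markers stood at 1 or more in every library, and the summed level of 13 leukocyte, fibroblast and endothelial markers was 0.891 to 0.907 in the control libraries, 2.19 to 2.64 with siRNA 1 and 2.75 to 5.03 with siRNA 2. COL1A1 made up most of that sum, at 0.757 and 0.795, 2.32 and 1.83, and 2.58 and 4.24, and each of the other 12 markers stood at or below 0.548 in every library.

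Among the 40 genes, NEIL3 was called lower with both siRNAs and BRCA2 with siRNA 2, and 0 genes were called higher. With siRNA 1, 1 of the 39 tested genes passed limma's test at a Benjamini-Hochberg adjusted p under 0.05, beside 1.63% of all 11486 genes tested. With siRNA 2, 2 of 39 passed, beside 3.0% of all genes, and in the mean of both siRNAs 1 of 39 passed, beside 1.19%. These shares lie near the background, so the number of calls among these genes is not a result about them. At an unadjusted p under 0.05, 1 gene was higher and 8 lower with siRNA 1, beside 10.7% and 9.83% of all genes. With siRNA 2, 0 were higher and 11 lower, beside 12.8% and 12.9%, and in the mean of both 0 were higher and 9 lower, beside 11.4% and 11.7%. The median log2 fold change of the 39 genes was −0.15 with siRNA 1 and −0.05 with siRNA 2, and that of all genes tested was 0.05 and 0.14. With siRNA 2 the median of the 39 was −0.31 without its replicate 2, 0.17 without its replicate 1 and 0.05 without control replicate 1. The 2 comparisons share the control libraries.

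**Figure D1:**
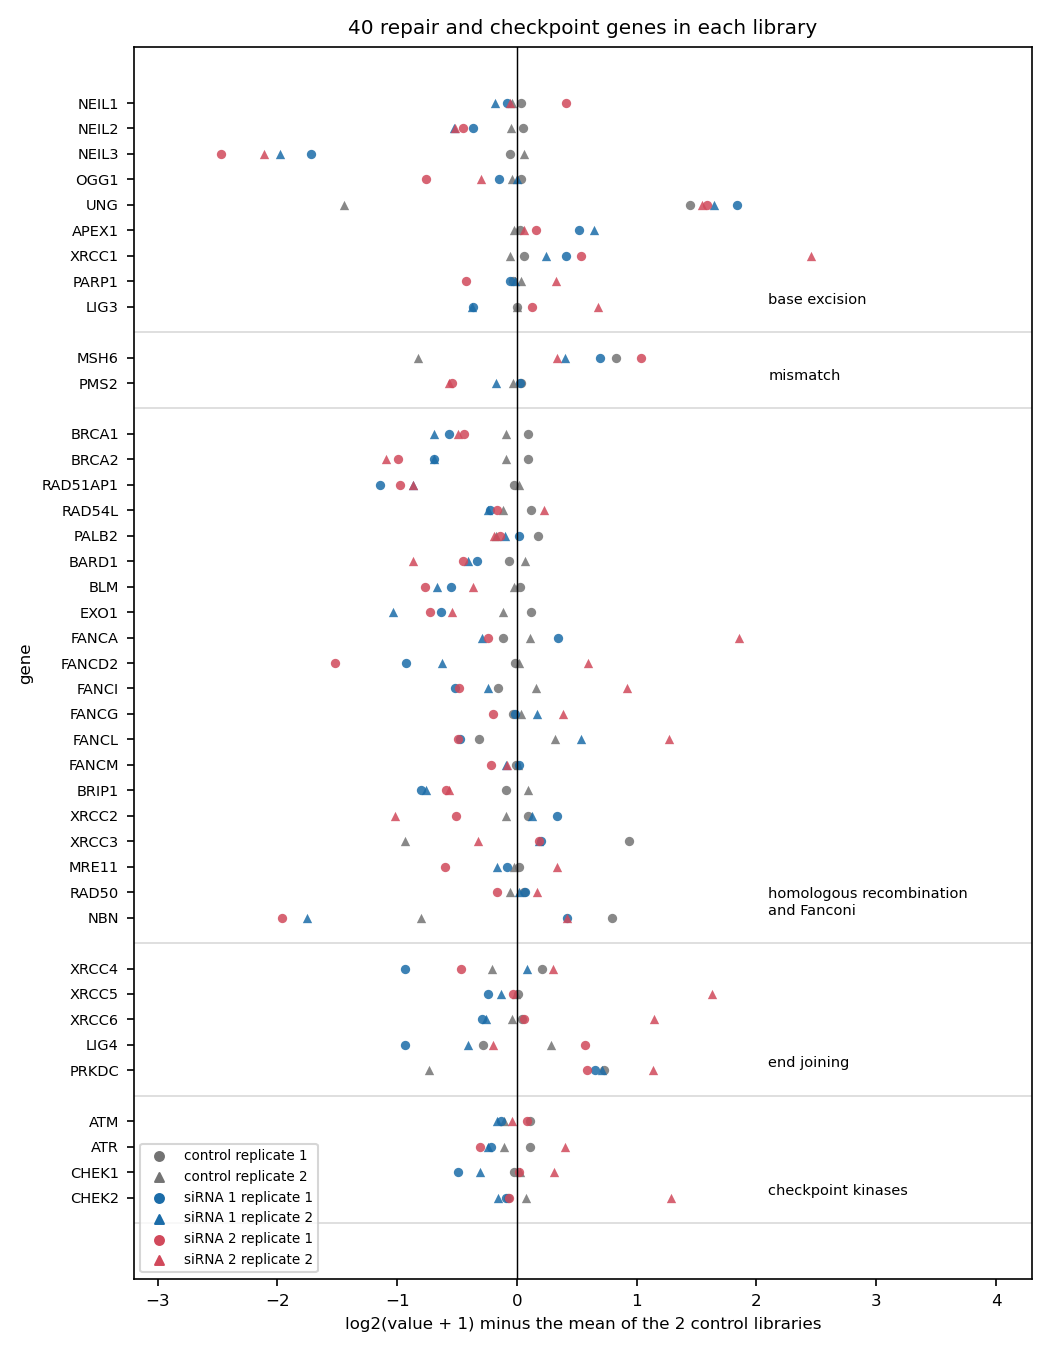
Difference of each library from the mean of the 2 control libraries, in log2(value + 1) units on the horizontal axis, for the 40 genes in rows grouped by role; colour gives the group and shape the replicate. The 4 siRNA libraries of NEIL3 lie farthest below 0 as a group, and the red triangles of siRNA 2 replicate 2 lie far to the right for XRCC1, FANCA, XRCC5 and CHEK2.

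NEIL3 was the gene with the largest called change of the 40. It encodes a DNA glycosylase that removes oxidised bases from single-stranded DNA and unhooks crosslinks at converging replication forks, and it lies on chromosome 4 at 177309836 to 177362943 of GRCh38, plus strand. Its control values were 14.4 and 15.7, its siRNA 1 values 3.86 and 3.06, and its siRNA 2 values 1.89 and 2.71. Every siRNA library lay below every control library, and the group means were 15.02 ± 0.948, 3.46 ± 0.566 and 2.30 ± 0.576 (SD, n = 2). The log2 fold change was −1.85 with siRNA 1 (SE 0.215, limma adjusted p = 0.0427), −2.29 with siRNA 2 (SE 0.215, adjusted p = 0.0326) and −2.07 in the mean of both (SE 0.186, adjusted p = 0.0389). The adjusted p-values lie close to the threshold. They ranged over the alternatives from 0.0044 to 0.241 with siRNA 1, from 0.0086 to 0.169 with siRNA 2 and from 0.0106 to 0.188 in the mean of both. All 3 calls were lost when either control library or either siRNA 1 library was left out, fits in which 0 of the 11486 genes were called; the log2 fold change was then −1.98 to −1.72 with siRNA 1 and −2.35 to −2.23 with siRNA 2. Other settings also removed calls. With siRNA 1 these were a pseudocount of 0.1, no filter on low values, a mean of at least 5, upper-quartile scaling and equal totals. The limma adjusted p was then 0.0516 to 0.07. With siRNA 2 they were equal totals (limma adjusted p = 0.0513), library weights (0.0947) and only the groups compared (0.15). In the mean of both it was no filter (limma adjusted p = 0.0514). A block for the replicate number removed all 3 calls. Without siRNA 2 replicate 2 the log2 fold change with siRNA 2 was −2.47.

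BRCA2, a core protein of homologous recombination, was called with siRNA 2. It lies on chromosome 13 at 32315474 to 32400266 of GRCh38, plus strand. BRCA2 stood at 2.69 and 2.24 in the controls, at 1.14 and 1.14 with siRNA 1, and 0.736 and 0.619 with siRNA 2. All 4 siRNA libraries were below both control libraries, and those of siRNA 2 were below those of siRNA 1. The log2 fold change was −1.04 with siRNA 2 (SE 0.132, limma adjusted p = 0.0397), −0.69 with siRNA 1 (SE 0.132, adjusted p = 0.0854) and −0.87 in the mean of both (SE 0.114, adjusted p = 0.0527). The difference between the siRNAs was 0.35 (SE 0.132, adjusted p = 0.199). With siRNA 2 the call was lost with no filter on low values, upper-quartile scaling and equal totals, at limma adjusted p of 0.0501 to 0.0805. Library weights (limma adjusted p = 0.168), only the groups compared and a block for the replicate number removed it too. Over the alternatives, the adjusted p for siRNA 2 ranged from 0.0145 to 0.216, and the call was lost when either control library or either siRNA 1 library was left out, where 0 of the 11486 genes were called and the log2 fold change of BRCA2 was −1.14 to −0.95.

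The sequences just upstream of 4 of the genes that stood lower in all siRNA libraries are shown because these genes stood lower in the same libraries, and because the promoters of cell-cycle genes often hold a CCAAT box, an E2F site or a CHR element. Each is the 250 bases before the start that RefSeq gives on GRCh38.p14, 5′ to 3′ on the strand of the gene. For NEIL3, BRCA2 and RAD51AP1 that start lies inside the gene as GENCODE bounds it, so the last bases of these windows do too. Capitals mark a match on either strand to CCAAT, the CHR letters TTTGAA or TTCGAA, or the E2F letters TTTGGCGC or TTTCGCGC.
NEIL3 (chr4:177309624-177309873, plus strand): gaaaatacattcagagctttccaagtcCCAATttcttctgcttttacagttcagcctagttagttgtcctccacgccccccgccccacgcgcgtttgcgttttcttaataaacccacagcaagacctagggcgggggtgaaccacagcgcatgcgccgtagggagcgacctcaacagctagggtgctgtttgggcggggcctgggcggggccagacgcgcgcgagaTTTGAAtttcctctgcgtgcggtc
BRCA2 (chr13:32315258-32315507, plus strand): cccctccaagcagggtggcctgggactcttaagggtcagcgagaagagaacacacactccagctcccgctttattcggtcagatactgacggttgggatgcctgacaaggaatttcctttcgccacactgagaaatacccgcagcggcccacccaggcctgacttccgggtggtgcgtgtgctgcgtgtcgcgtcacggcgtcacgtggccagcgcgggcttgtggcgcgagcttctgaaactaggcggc
RAD51AP1 (chr12:4538640-4538889, plus strand): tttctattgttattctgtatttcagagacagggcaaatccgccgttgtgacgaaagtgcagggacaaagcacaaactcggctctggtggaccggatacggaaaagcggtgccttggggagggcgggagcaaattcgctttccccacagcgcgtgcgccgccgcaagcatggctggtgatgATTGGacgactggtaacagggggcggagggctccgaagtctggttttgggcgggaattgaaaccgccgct
BRIP1 (chr17:61863529-61863778, minus strand): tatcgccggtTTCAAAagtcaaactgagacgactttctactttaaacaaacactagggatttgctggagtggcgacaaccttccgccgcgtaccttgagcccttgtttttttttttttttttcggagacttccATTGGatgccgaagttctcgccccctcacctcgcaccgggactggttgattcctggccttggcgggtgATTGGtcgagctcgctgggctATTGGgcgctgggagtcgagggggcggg
The NEIL3 window holds TTTGAA and CCAAT on the strand of the gene. The BRIP1 window holds both on the opposite strand, so that the printed strand reads TTCAAA and ATTGG. The RAD51AP1 window holds CCAAT as ATTGG, and the BRCA2 window holds 0 of the 5 motifs. Other genes lower in all siRNA libraries are not shown. Of these, BLM has 3 matches to CCAAT in its 250 bases. BRCA1 has 0 matches in its first window and 1 in its second, and EXO1 and BARD1 have 0.

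RefSeq promoters, here 250 bases before to 50 after a start, were matched for 35 of the 40 genes, 52 promoters in all. Promoters on chromosome 8, where NEIL2, PRKDC and NBN lie, were left out of the 52, and XRCC5 and FANCI were not matched. The set of all 35116 promoters was not filtered in this way. CCAAT, on either strand, was found in 59.6% of the 52 promoters and in 34.6% of all 35116 promoters of the same length. TTTGAA was in 9.62% of the 52 and 15.2% of all, namely in promoters of ATM, BRIP1, NEIL3, UNG and XRCC1, and TTCGAA was in 0 of the 52 and 1.45% of all. TTTGGCGC was in 1 promoter, that of XRCC6, and TTTCGCGC in 1, that of EXO1, against 0.652% and 0.515% of all promoters. The genes with TTTGAA thus include NEIL3 and BRIP1, lower in all 4 siRNA libraries, and UNG and XRCC1, higher in all 4 in the deposited values.

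The other genes of base excision repair went in several directions, with 0 further calls. Among the glycosylases, NEIL2, which removes oxidised pyrimidines, stood at 8.14 and 7.52 in the controls, 5.85 and 5.15 with siRNA 1, and 5.44 and 5.16 with siRNA 2. The 4 siRNA libraries were below both controls, with a log2 fold change of −0.46 in the mean of both (SE 0.145, limma adjusted p = 0.161). OGG1, which removes 8-oxoguanine, stood at 3.89 and 3.64, then at 3.29 and 3.77, and at 1.82 and 2.86 with siRNA 2, so that it lay below the controls only with siRNA 2. NEIL1, another glycosylase for oxidised bases, ranged from 2.56 to 4.38 over the 6 libraries. The annotated exons of OGG1 share 24.96% of their length with CAMK1 and those of NEIL1 share 26.4% with MAN2C1, both on the opposite strand.

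UNG, the glycosylase that removes uracil from DNA, stood at 31.0 and 27.0 with siRNA 1 and 25.8 and 25.2 with siRNA 2, but at 23.3 and 2.29 in the control libraries. Control replicate 2 alone was low. The log2 fold change of 1.65 in the mean of both (SE 0.849, limma adjusted p = 0.331) was 0.21 without that library.

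APEX1, the endonuclease that cuts at sites without a base, stood at 128 and 123 in the controls, 180 and 196 with siRNA 1, and 140 and 130 with siRNA 2. In the deposited values, though not with equal column totals, it was higher in all 4 siRNA libraries, by 0.58 on the log2 scale with siRNA 1 (SE 0.161, limma adjusted p = 0.146) and 0.11 with siRNA 2 (SE 0.161, adjusted p = 0.677). XRCC1, the scaffold that holds the ligase, stood at 1.77 and 1.55, then at 2.54 and 2.14, and at 2.86 and 13.6 with siRNA 2. The last value is that of siRNA 2 replicate 2. LIG3, the ligase that XRCC1 holds, stood at 3.65 and 3.67 in the controls, 2.62 and 2.60 with siRNA 1, and 4.09 and 6.44 with siRNA 2. It was thus below the controls with siRNA 1 and above them with siRNA 2. The log2 fold change of siRNA 1 against siRNA 2 was −0.77 (SE 0.231, adjusted p = 0.142), and 29.1% of the annotated exon length of LIG3 is shared with RFFL on the opposite strand. PARP1, which senses strand breaks, stood at 18.9 and 19.9 in the controls and between 14.2 and 24.6 in the siRNA libraries.

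Homologous recombination and the Fanconi pathway held most of the genes that stood lower in all siRNA libraries. With siRNA 1, 21 of the 39 genes lay below both control libraries in both siRNA libraries and 4 lay above, beside 31.1% and 36.8% of all genes tested. With siRNA 2, 13 lay below and 5 above, beside 25.9% and 33.7%. All 4 siRNA libraries lay below both controls for 9 of the 39 genes and above for 3, beside 14.7% and 18.3% of all genes. Of the 9, 7 were among the 19 tested genes of homologous recombination and the Fanconi pathway, namely BRCA1, BRCA2, RAD51AP1, BARD1, BLM, EXO1 and BRIP1, and the other 2 were NEIL2 and NEIL3. The 3 higher genes were APEX1, UNG and XRCC1. With the column totals made equal, the counts were 13 lower and 1 higher, the latter XRCC1, beside 17.6% and 12.1% of all genes. For a single gene, an exact two-sided permutation test of 4 libraries against 2 cannot go below p = 0.0667. The median log2 fold change of the 19 genes was −0.37 with siRNA 1 and −0.46 with siRNA 2. The latter is the value of FANCD2, which stood at 0.329 and 4.75 in the siRNA 2 libraries. By library, the median difference of the 19 genes from the control mean was −0.49 in siRNA 2 replicate 1 and −0.19 in replicate 2. Of the 19, 1 was called, BRCA2 with siRNA 2.

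**Figure D2:**
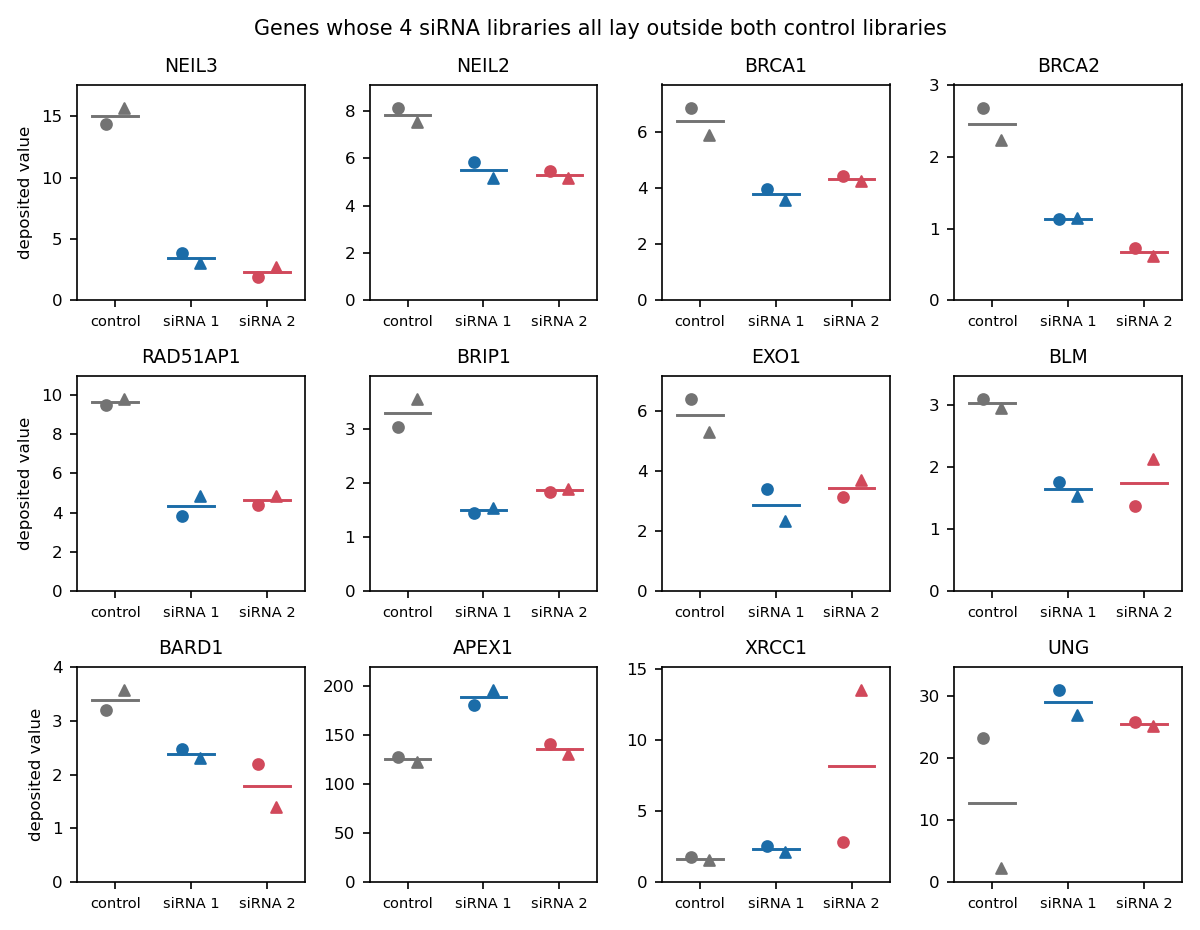
Deposited value, on axes that start at 0, in the control (grey), siRNA 1 (blue) and siRNA 2 (red) libraries of the 12 genes whose 4 siRNA libraries all lay on one side of both controls; circles are replicate 1, triangles replicate 2 and lines the mean of the 2. NEIL3 goes from 15.02 in the controls to 3.46 and 2.30, while UNG has 1 low control library at 2.29 and XRCC1 has 1 high siRNA 2 library at 13.6.

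The first of these genes are BRCA1 and its partners. BRCA1, which directs broken ends to recombination, stood at 6.89 and 5.92 in the controls, 3.99 and 3.58 with siRNA 1, and 4.43 and 4.26 with siRNA 2. BARD1, its partner in a ubiquitin ligase, stood at 3.19 and 3.58, then at 2.47 and 2.31, and at 2.20 and 1.39 with siRNA 2. BRIP1, the helicase that binds BRCA1, stood at 3.03 and 3.56 in the controls, 1.46 and 1.54 with siRNA 1, and 1.84 and 1.89 with siRNA 2. In all 3 the siRNA libraries and the control libraries did not overlap. BRIP1 had a log2 fold change of −0.68 in the mean of both (SE 0.122, limma adjusted p = 0.0726), and PALB2, which links BRCA1 to BRCA2, overlapped between groups at 5.81 to 6.82 against 7.74 and 5.87.

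Among the genes of strand invasion, RAD51AP1, which promotes the pairing of the invading strand, stood at 9.48 and 9.80 in the controls, 3.81 and 4.83 with siRNA 1, and 4.41 and 4.85 with siRNA 2. The means were 9.64 ± 0.224, 4.32 ± 0.721 and 4.63 ± 0.307 (SD, n = 2), a log2 fold change of −0.96 in the mean of both (SE 0.159, limma adjusted p = 0.0657). XRCC2, which also acts in homologous recombination, was above the controls with siRNA 1, at 4.61 and 3.84 against 3.74 and 3.16, and below them with siRNA 2, at 2.12 and 1.2. The log2 fold change of siRNA 1 against siRNA 2 was 0.99 (SE 0.235, adjusted p = 0.0986). XRCC3, another recombination gene, stood at 6.73 and 1.11 in the controls, so that every siRNA library lay between the 2 controls, and 76.7% of its annotated exon length is shared with KLC1 on the opposite strand.

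The nucleases and helicases that cut back and unwind the ends were split. EXO1, the exonuclease of long resection, stood at 6.41 and 5.31 in the controls, 3.4 and 2.34 with siRNA 1, and 3.14 and 3.71 with siRNA 2. Its groups did not overlap, and the log2 fold change in the mean of both was −0.73 (SE 0.189, limma adjusted p = 0.122). BLM, a helicase of resection and of crossover control, stood at 3.10 and 2.95, then at 1.75 and 1.53, and at 1.37 and 2.13 with siRNA 2. Of the complex that first binds a break, RAD50 stayed between 9.14 and 11.8 in all 6 libraries, although 79.7% of its annotated exon length is shared with the read-through gene AC116366.3 on the same strand. MRE11, its nuclease, stood at 4.83 and 4.66 in the controls and between 2.80 and 6.23 in the siRNA libraries. NBN, the third member, differed within every group, at 13.9 and 3.93 in the control libraries, 10.4 and 1.54 with siRNA 1, and 1.2 and 10.5 with siRNA 2.

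The Fanconi genes differed among themselves. FANCM, which brings the core complex to DNA, stood between 1.21 and 1.60 in all 6 libraries, and FANCG, a core subunit, between 2.86 and 4.80. FANCD2 and FANCI form the pair that the core complex modifies. FANCD2 stood at 2.77 and 2.86 in the controls, 1.01 and 1.47 with siRNA 1, and 0.329 and 4.75 with siRNA 2, and FANCI at 6.27 and 8.04, 4.67 and 5.84, and 4.79 and 14.3. Both were below the controls in 3 siRNA libraries and above them in siRNA 2 replicate 2. FANCL, the ubiquitin ligase of the complex, was higher in replicate 2 of every group, at 4.89 and 8.15, 4.28 and 9.64, and 4.24 and 16.7. FANCA, a core subunit, reached 1 only in siRNA 1 replicate 1 (1.15) and siRNA 2 replicate 2 (5.12), and entered the test through those libraries.

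In mismatch repair, MSH6, which recognises mismatches, stood at 39.1 and 11.8 in the controls, 35.7 and 28.97 with siRNA 1, and 45.5 and 27.6 with siRNA 2. The groups overlapped, and the log2 fold change in the mean of both was 0.62 (SE 0.54, limma adjusted p = 0.541). PMS2, the endonuclease subunit that acts after recognition, stood at 5.77 and 5.48, then at 5.73 and 4.86, and at 3.54 and 3.48 with siRNA 2. It lay below the controls with siRNA 2, by a log2 fold change of −0.55 (SE 0.166, adjusted p = 0.136), and siRNA 1 against siRNA 2 gave 0.48 (SE 0.166, adjusted p = 0.18). PMS2 has near-identical pseudogene copies in the genome, so its values are uncertain where reads could be split between them.

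End joining showed 0 calls, and its largest values came from 1 library. XRCC5 and XRCC6 encode the 2 subunits of Ku, the ring that binds broken ends. XRCC5 stood at 40.8 and 40.3 in the controls, 34.2 and 36.9 with siRNA 1, and 39.6 and 128 with siRNA 2. XRCC6 stood at 52.5 and 49.4, then at 41.5 and 42.4, and at 53.1 and 114 with siRNA 2. Both were below the controls with siRNA 1, and both were over 2-fold higher in siRNA 2 replicate 2 than in its replicate. For XRCC6 the log2 fold change of siRNA 1 against siRNA 2 was −0.88 (SE 0.388, limma adjusted p = 0.254).

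PRKDC, the kinase that Ku recruits, stood between 19.0 and 28.2 in the 4 siRNA libraries and at 21.1 and 7.01 in the controls, where replicate 2 was low. LIG4, the ligase of this pathway, stood at 6.22 and 9.74 in the controls, 3.62 and 5.63 with siRNA 1, and 12.05 and 6.66 with siRNA 2. Its siRNA 1 libraries lay below both controls, with a log2 fold change of −0.67 (SE 0.39, limma adjusted p = 0.423). XRCC4, the partner of LIG4, stood at 3.92 and 2.69, 1.24 and 3.51, and 2.08 and 4.24, and its groups overlapped.

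The 4 checkpoint kinases lay below both control libraries in both siRNA 1 libraries, as did 31.1% of all genes tested. In neither comparison were they called. The gap to the lower control was small for CHEK2 (2.34 against 2.39) and ATM (3.83 against 3.90). CHEK1, the effector kinase of the replication checkpoint, stood at 8.56 and 8.92 in the controls, 5.94 and 6.88 with siRNA 1, and 8.88 and 11.1 with siRNA 2. Its log2 fold change was −0.40 with siRNA 1 (SE 0.191, limma adjusted p = 0.336) and 0.17 with siRNA 2 (SE 0.191, adjusted p = 0.598), and siRNA 1 against siRNA 2 gave −0.56 (SE 0.191, adjusted p = 0.173). CHEK2, the effector kinase downstream of ATM, stood at 2.39 and 2.77, 2.34 and 2.21, and 2.41 and 7.70, so that siRNA 2 replicate 2 alone was high. ATM, which answers breaks, stood at 4.71 and 3.90 in the controls, 3.83 and 3.71 with siRNA 1, and 4.60 and 4.15 with siRNA 2. ATR, which answers stalled forks, stood at 4.12 and 3.42, 3.09 and 3.03, and 2.83 and 5.29. For ATM, ATR and CHEK2 the shift with siRNA 1 was between −0.12 and −0.23 on the log2 scale, with adjusted p between 0.692 and 0.927.

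Compared directly, the libraries of the 2 siRNAs gave 0 calls among the 39 genes in limma's test, beside 3.27% of all genes, and 6 genes at an unadjusted p under 0.05, 4 of them higher and 2 lower with siRNA 1, beside 12.7% and 11.7% of all genes. Of the 39, 11 lay lower with siRNA 1 without overlap and 9 higher, beside 30.8% and 26.4% of all genes. All 5 end joining genes had a negative difference, with a median log2 fold change of −0.85, and all 4 checkpoint kinases did, with a median of −0.42, where the median of all genes tested was −0.10. Without siRNA 2 replicate 2, 3 of the 5 end joining genes had a negative difference, with a median of −0.15, as had 3 of the 4 kinases, with a median of −0.15, beside −0.02 for all genes. LIG3, XRCC2 and XRCC6 were the 3 genes whose libraries lay on opposite sides of the controls with the 2 siRNAs in the deposited values, as did 11.0% of all genes. With equal totals XRCC2 no longer did, and with median-ratio scaling XRCC6 no longer did.

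The spread between replicates set what could be seen. On the log2(value + 1) scale, 5 of the 39 genes differed by over 2-fold between the control replicates, beside 7.86% of all genes, and these were UNG, MSH6, XRCC3, NBN and PRKDC. All 5 were lower in control replicate 2, as were 54.9% of all genes that far apart. Between the siRNA 1 replicates 3 genes were that far apart, FANCL, NBN and XRCC4, beside 7.09% of all genes. Between the siRNA 2 replicates 9 were, beside 19.5%, and all 9 were higher in replicate 2, where 6.49% of all genes that far apart were lower. They were XRCC1, FANCA, FANCD2, FANCI, FANCL, NBN, XRCC5, XRCC6 and CHEK2. Without siRNA 2 replicate 2, 14 of the 39 genes lay below both controls in the 3 remaining siRNA libraries, beside 19.3% of all genes. Without siRNA 2 replicate 1, 10 did, beside 18.9%.

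**Figure D3:**
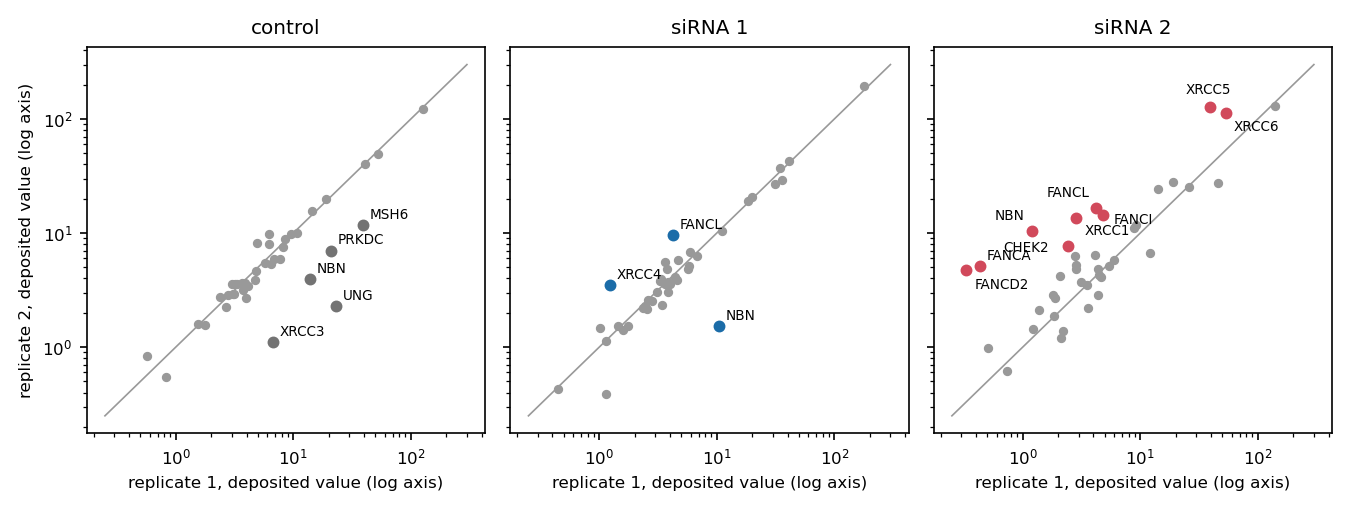
Deposited value of replicate 1 (horizontal) against replicate 2 (vertical), both on log axes, for the 40 genes in each group; the line marks equal values, and coloured, named points are genes over 2-fold apart on the log2(value + 1) scale. The 5 named control genes lie below the line, the 9 named siRNA 2 genes above it.

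Genes whose mRNA marks S and G2/M phase were set beside these values, since fewer cells of a kind and less RNA per cell cannot be told apart in bulk RNA. The summed level of 34 such markers was 508 and 536 in the control libraries, 354 and 337 with siRNA 1, and 358 and 515 with siRNA 2. It was lower in 3 siRNA libraries and in the range of the controls in siRNA 2 replicate 2. With equal column totals that exception was gone, with sums of 550.4 and 579.8 in the controls and 347 to 394 in the 4 siRNA libraries. The median difference of the 33 tested markers from the control mean was −0.42, −0.43, −0.34 and 0.10 log2 units in the 4 siRNA libraries in the same order, and that of the 39 repair genes was −0.15, −0.18, −0.31 and 0.17. For the 19 genes of homologous recombination and the Fanconi pathway it was −0.34, −0.29, −0.49 and −0.19. All 4 siRNA libraries lay below both controls for 9 of the 33 markers and above for 1, beside 14.7% and 18.3% of all genes. Of the 33, 0 were called higher. With siRNA 1, 2 were called lower, UHRF1 and TOP2A, beside 1.63% of all genes called either way. The same 2 were called lower in the mean of both, beside 1.19%. With siRNA 2, 1 was called lower, TOP2A, beside 3.0%. TOP2A, a topoisomerase of dividing cells, stood at 56.0 and 54.5 in the controls, 14.7 and 14.6 with siRNA 1, and 11.0 and 16.4 with siRNA 2. The part of these markers in the values of the repair genes was not tested.

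**Figure D4:**
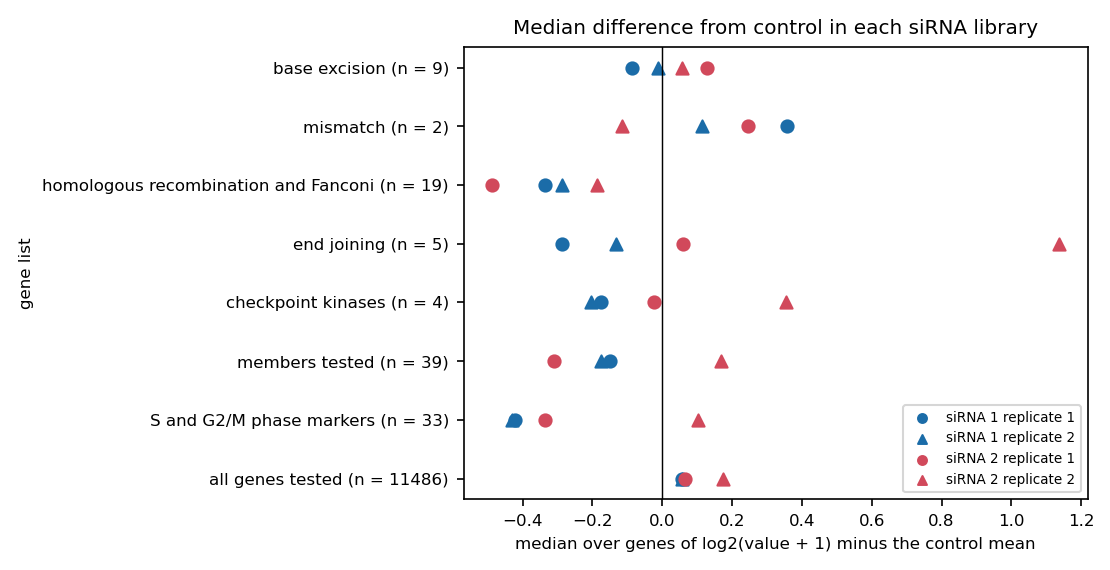
Median over the genes of a list, in log2(value + 1) units from the mean of the controls, in each of the 4 siRNA libraries; rows are the 5 roles, the 39 tested genes, the S and G2/M phase markers and all genes tested, with the number of genes in brackets. Homologous recombination and Fanconi is below 0 in all 4 libraries, whereas end joining reaches 1.14 and the checkpoint kinases 0.36 in siRNA 2 replicate 2.

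The other genes of these pathways were read from a list of 113 further repair and checkpoint genes, of which 110 were tested. With siRNA 1, 0 were called higher and 2 lower, beside 1.63% of all genes called either way. With siRNA 2, 0 were called higher and 4 lower, beside 3.0%, and in the mean of both, 0 higher and 2 lower, beside 1.19%. Their median log2 fold change was 0.02, 0.21 and 0.13, close to that of all genes tested. All 4 siRNA libraries lay below both controls for 18 of the 110 and above for 16, although the genes called among the 110 against control were all lower. The 38 tested further genes of homologous recombination and the Fanconi pathway had medians of −0.01 with siRNA 1 and 0.07 with siRNA 2. Of them, 19 and 21 were positive. The 19 described above had −0.37 and −0.46, and by library −0.49 and −0.19 with siRNA 2. All 4 siRNA libraries lay below both controls for 9 of the 38 and above for 3. Among the 19, the counts were 7 and 0, and among all genes 14.7% and 18.3%. In homologous recombination and the Fanconi pathway, FANCB, a core subunit, was called lower with both siRNAs. Its control values were 1.90 and 1.98, against 0.574 and 0.539 with siRNA 1 and 0.709 and 0.612 with siRNA 2. Only the controls reached 1, so FANCB passed the filter on low values through that group alone, which favours a lower call. Its siRNA values all lay under that filter. EME1, a subunit of a nuclease that cuts branched DNA, fell with siRNA 2, from 5.60 and 5.47 to 1.80 and 1.55, a log2 fold change of −1.29 (SE 0.149, limma adjusted p = 0.0389). With siRNA 1 it was also below the controls, at 2.77 and 2.55, but was not called (limma adjusted p = 0.0789). POLQ, the polymerase of microhomology-mediated joining, fell with siRNA 2 from 3.71 and 3.08 to 1.23 and 1.05. It was called with siRNA 2 only, though its siRNA 1 values, 2.39 and 2.23, were also below the controls.

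In nucleotide excision repair, ERCC4, a subunit of the nuclease that cuts beside a lesion, fell with siRNA 2, from 10.1 and 10.6 in the control libraries to 3.03 and 2.39. With siRNA 1 ERCC4 was also lower, at 4.545 and 4.993, but was not called (limma adjusted p = 0.081). In the mean of both it was called (limma adjusted p = 0.049). RAD23B, a partner of the damage sensor XPC, fell with siRNA 1, from 48.9 and 52.3 to 10.9 and 9.99, and stood at 55.4 and 50.3 with siRNA 2. XPC stood at 7.69 and 7.12 in the controls, 16.8 and 17.4 with siRNA 1, and 7.24 and 6.26 with siRNA 2. RAD23B and XPC were the 2 genes of this list called between the siRNAs, with log2 fold changes of siRNA 1 against siRNA 2 of −2.23 (SE 0.158, limma adjusted p = 0.0253) and 1.23 (SE 0.167, adjusted p = 0.0441).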

How the data were processed

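Poly(A)-selected, strand-specific RNA-seq libraries of A549 cells were made with a dUTP kit, per the labels' protocols, in 3 groups of 2. The authors deposited 1 table of a non-negative signal per gene symbol, scaled by depth and, from the look of the values, by length; no source used here says whether it is FPKM or TPM. The build hg38 and the tools STAR, featureCounts and Trim Galore are listed, per the submitters' processing notes, without versions. Read depth is unknown, so no counting interval is given.

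Genes that reached 1 in 2 or more libraries (11486 of 19990) were tested on log2(value + 1) with limma 3.58.1 in R 4.3.3 (eBayes, trend and robust options), with 1 term per group over all 6 libraries and 3 residual degrees of freedom. Calls were made at 0.05 after Benjamini-Hochberg adjustment over all 11486. The +1 understates the change of low genes. With 2 libraries against 2, an exact two-sided permutation test cannot go below p = 0.333. Of the alternatives, 16 were tried.

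Genes given a full test are those called, up to 4 per role ranked by p in the mean of both siRNAs and up to 2 ranked in siRNA 1 against siRNA 2, plus TIMM13. From the other lists, the genes named are those called, chosen after their values were seen. The plan was to name up to 2 per list by smallest p, which would have included genes that stood higher and were not called. The members and lists were chosen with earlier results of these data known. Coordinates and exon overlaps are from GENCODE release 29 on GRCh38, and promoters from RefSeq on GRCh38.p14.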

Additional observations from a re-analysis of the deposited data

Results flagged for a closer look

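In 3 of the 39 genes every siRNA 1 library lay on one side of the controls and every siRNA 2 library on the other. The difference between the siRNAs was tested with limma for each and did not pass the adjusted threshold. LIG3 was lower in both siRNA 1 libraries and higher in both siRNA 2 libraries, a log2 fold change of siRNA 1 against siRNA 2 of −0.77 (adjusted p = 0.142). XRCC6 showed the same order, with −0.88 (adjusted p = 0.254), and its siRNA 2 replicate 1 lay above the higher control library by little, at 53.1 against 52.5. XRCC2 showed the reverse order, with 0.99 (adjusted p = 0.0986). Over all genes tested, 1261 of 11486 had libraries on opposite sides of the controls in this way, or 11.0%. With equal totals XRCC2, and with median-ratio scaling XRCC6, no longer did.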

How the results depend on the processing

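With 2 libraries a group and unknown depth, the number of called genes moved with nearly every choice. With siRNA 1 (1 of the 39 genes called) it was 0 with a pseudocount of 0.1, with no filter on low values, with a mean of at least 5, with upper-quartile scaling and with equal totals, 9 with library weights and 7 with only the groups compared, fits that called 26.1% and 20.8% of all genes. With siRNA 2 (2 called) it was 1 with no filter, a mean of at least 5 or upper-quartile scaling, and 0 with equal totals, library weights or only the groups compared. In the mean of both (1 called) it was 0 with no filter and 3 with library weights (6.89% of all genes). Leaving out 1 library gave 0 to 7 with siRNA 1, 0 to 12 with siRNA 2, 0 to 13 in the mean of both and 0 to 13 for siRNA 1 against siRNA 2. In each of these fits 1 group keeps a lone library, which is assumed to vary like the others, and the counts followed those of all genes: 0 of 11486 were called without a control or siRNA 1 library, 20.5%, 40.6%, 35.4% and 39.9% in these comparisons without siRNA 2 replicate 1, and 20.7%, 15.3%, 20.2% and 14.3% without replicate 2. With the replicate number as a block, 0 of the 39 genes were called with siRNA 1, with siRNA 2 and in the mean of both, as were 0 of all 11486. The correlations of same-numbered libraries' deviations were 0.0014, −0.0033 and 0.0459, so the numbers were not taken as pairs.

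The median log2 fold change with siRNA 1 (−0.15) was −0.18 with a pseudocount of 0.1, −0.19 with a mean of at least 5, −0.17 with upper-quartile scaling, −0.20 with equal totals, −0.19 with median-ratio scaling, and −0.26 to −0.12 without 1 library. With siRNA 2 (−0.05) its sign depended on the setting: it was 0.17 with a mean of at least 5, −0.22 with upper-quartile scaling, −0.23 with equal totals, −0.16 with median-ratio scaling, 0.17 without siRNA 2 replicate 1, −0.31 without replicate 2 and 0.05 without control replicate 1. Equal totals moved the median of all genes with siRNA 2 from 0.14 to −0.06. Counts of libraries without overlap under other scalings, or without a library, were added after the data were seen. Genes higher with siRNA 2 (5) numbered 3 with equal totals, 3 with upper-quartile scaling, 2 with median-ratio scaling, and 8 to 19 without 1 siRNA 2 library (46.4% and 51.1% of all genes), and genes lower numbered 15 to 25 (38.3% and 39.1%), since 1 remaining library overlaps less often. Genes lower in all siRNA libraries (9) numbered 10 to 14 without 1 siRNA 2 library, and genes higher (3) numbered 1 under each of the 3 scalings.

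Of 509 alternative values of 34 fold changes, 441 kept their direction and side of the threshold, mostly for fold changes not called in the main fit. Of the rest, 34 lost a call, 23 gained one and 11 changed sign. All 34 lost calls were of NEIL3 and of BRCA2 with siRNA 2. NEIL3 was called in 6 of 16 alternatives with siRNA 1, 8 of 16 with siRNA 2 and 9 of 15 in the mean of both. BRCA2 was called with siRNA 2 in 5 of 15. The 11 changes of sign were in 7 fold changes of MSH6, LIG4, XRCC5, CHEK2, ATM and ATR, none of them called. Without 1 library, the mean of both ranged from −0.21 to 1.44 for MSH6, −0.53 to 0.043 for LIG4, −0.11 to 0.72 for XRCC5, −0.10 to 0.58 for CHEK2, −0.17 to 0.047 for ATM and −0.27 to 0.087 for ATR. For MSH6, siRNA 1 against siRNA 2 was −0.49 to 0.21 without 1 library, 0.049 with upper-quartile scaling and 0.041 with equal totals. The cause was not tested.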
